A study of Mus musculus with 2 samples.

Results

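The dystrophin-glycoprotein complex was followed through 8 genes, Dag1, Dmd, Utrn, Sgca, Sgcb, Sgcd, Sspn and Itga7, out of the 32285 genes counted in a pair of single-cell RNA-seq libraries from mouse plantaris muscle. The genes were chosen by name as core members of the complex, the dystrophin paralog utrophin and the laminin receptor integrin alpha 7, and their counts were read across muscle stem cell (MuSC) states, myocytes, droplets filled with fibre RNA, Schwann cells and Pdgfra-expressing cells. All 8 genes had counts in at least 1 group.

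Both groups were mice that carried Pax7rtTA, a doxycycline-controlled activator knocked in at the endogenous Pax7 locus, and TRE-H2B-GFP, a nuclear GFP reporter under its control, so that the reporter was driven in Pax7-expressing cells. At an age of 26 weeks they were given doxycycline (2.0 mg/ml, with 2% sucrose) in the drinking water for 2 weeks. One group had a sham operation, and the other had mechanical overload (MOV) of the plantaris by removal of its synergist muscles, with tissue taken 5 days after surgery in both groups. Cells were sorted for VCAM+ without CD31, CD45 and SCA1 by the study's methods, while the series' own description speaks of a sort on GFP, and 1 library was made per condition. The labels speak of 1 mouse per sample and the methods of several mice per group, so how many animals stand behind each library is open.

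Dystroglycan, the product of Dag1, binds laminin outside the cell, and its intracellular tail is tied to actin by dystrophin or by its paralog utrophin. In muscle the sarcoglycans and sarcospan bind beside dystroglycan and hold the assembly in the fibre membrane, and loss of dystrophin or of a sarcoglycan causes muscular dystrophy. Schwann cells and other non-muscle cells build related complexes with short dystrophin forms, utrophin and the epsilon sarcoglycan.

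The start regions of the genes differ in kind, and 5 of them are shown because the values below turn on which of these genes are muscle-restricted and because Dmd has separate starts for its full-length and its short forms. The sequences are from RefSeq on GRCm38.p6, 250 bases before to 50 after each annotated start, 5′ to 3′ on the strand of the gene, and capitals mark each CANNTG, the E-box that myogenic factors of the MyoD family can bind. The Dag1 window lies at chr9:108263909-108264208 on the minus strand, the full-length Dmd window at chrX:82948620-82948919 and the inner Dmd window at chrX:85048045-85048344 on the plus strand, and the Sgca and Sgcd windows at chr11:94976278-94976577 and chr11:47379276-47379575 on the minus strand.
Dag1 promoter: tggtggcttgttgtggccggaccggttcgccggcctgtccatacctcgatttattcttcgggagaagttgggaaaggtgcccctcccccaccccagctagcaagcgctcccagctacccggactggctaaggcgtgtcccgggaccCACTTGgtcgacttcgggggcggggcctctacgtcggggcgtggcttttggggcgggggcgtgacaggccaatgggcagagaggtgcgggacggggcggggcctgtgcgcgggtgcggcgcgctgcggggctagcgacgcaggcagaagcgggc
Dmd full-length promoter: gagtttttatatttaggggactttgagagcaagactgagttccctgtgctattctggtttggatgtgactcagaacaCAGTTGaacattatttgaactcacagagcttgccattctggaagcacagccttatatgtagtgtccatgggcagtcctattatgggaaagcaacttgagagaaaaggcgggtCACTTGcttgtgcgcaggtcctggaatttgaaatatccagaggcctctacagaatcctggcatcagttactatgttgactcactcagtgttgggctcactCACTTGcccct
Dmd inner promoter: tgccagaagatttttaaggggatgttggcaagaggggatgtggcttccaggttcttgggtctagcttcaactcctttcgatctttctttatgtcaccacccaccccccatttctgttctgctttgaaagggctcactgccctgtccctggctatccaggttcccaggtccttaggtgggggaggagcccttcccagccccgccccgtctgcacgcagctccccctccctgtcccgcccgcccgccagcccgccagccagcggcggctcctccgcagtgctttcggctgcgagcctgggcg
Sgca promoter: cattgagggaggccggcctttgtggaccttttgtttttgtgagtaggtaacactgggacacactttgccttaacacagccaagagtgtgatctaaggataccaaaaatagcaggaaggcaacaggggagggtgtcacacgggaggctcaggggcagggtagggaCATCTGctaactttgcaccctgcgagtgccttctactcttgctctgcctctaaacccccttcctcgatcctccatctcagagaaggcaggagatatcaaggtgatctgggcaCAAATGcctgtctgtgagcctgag
Sgcd promoter: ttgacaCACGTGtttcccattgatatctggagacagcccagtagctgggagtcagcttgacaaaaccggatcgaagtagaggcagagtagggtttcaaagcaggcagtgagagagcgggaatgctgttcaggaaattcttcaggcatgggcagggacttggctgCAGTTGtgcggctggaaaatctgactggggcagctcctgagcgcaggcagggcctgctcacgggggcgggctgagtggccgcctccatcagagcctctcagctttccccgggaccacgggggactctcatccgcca

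The full-length Dmd window held 3 E-boxes, 2 CpG and a GC content of 45.7%, and the inner Dmd window held 0 E-boxes, 14 CpG and a GC content of 62.7%. The Sgca window held 2 E-boxes with 4 CpG, the Sgcd window 2 with 12 CpG, and the Dag1 window 1 with 30 CpG. Among 32851 windows of the same length, 72.3% held at least 1 CANNTG on either strand, the median GC content was 52.7% and the median number of CpG was 7. The narrower E-box CAGCTG, which is itself one form of CANNTG, was in 0 of the 10 windows found for 7 members and in 16.3% of all windows. The GC box GGGCGG, searched on both strands, was in 35.7% of all windows, and it occurred 3 times in the inner Dmd window and 3 times in the Dag1 window shown. These are matches of letters and not sites of binding.

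In the GENCODE vM21 annotation of GRCm38, Dmd lies at chrX:82948870-85206141 on the plus strand and has 3 coding transcripts, 1 of 79 exons from the far start and 2 of 17 and 18 exons from chrX:85048413, close behind the inner window. All 3 end inside the same last exon of 3671 bases, so counts of 3′ ends cannot tell full-length from short dystrophin, and every Dmd value below is their sum. The other members lie at chr9:108204634-108263958 (Dag1, minus strand), chr10:12382188-12869365 (Utrn, minus), chr11:94962791-94976327 (Sgca, minus), chr5:73632749-73647790 (Sgcb, minus), chr11:46896253-47988969 (Sgcd, minus), chr6:145931641-145965223 (Sspn, plus) and chr10:128933818-128958282 (Itga7, plus). The RefSeq start shown for Sgcd lies inside the GENCODE gene, downstream of the gene's outermost start. No other protein-coding gene overlapped any of the 8 on the same strand.

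The sham library held 1100 cells with 7302661 unique molecular identifiers (UMIs, each counting 1 captured RNA), and the MOV library 3854 cells with 88498487 UMIs. Cells under 10% mitochondrial UMIs were grouped by UMIs of marker genes, which left 114 sham and 1475 MOV MuSCs, 498 and 46 fibre droplets, 6 and 55 Schwann cells, 25 and 363 Pdgfra cells, and 1 and 193 myocytes. The label of both samples is muscle stem cells, yet in the sham library the fibre droplets, which lacked MuSC markers, were the largest group. The libraries shared 44 barcodes, of which 39 were deeper in sham, and 19 of the 46 MOV fibre droplets had the barcode of a deeper sham fibre droplet. Expression is given as CPM, the UMIs of a gene scaled to 1000000 UMIs of the group, with exact 95% Poisson intervals in brackets that cover counting error only. There is 1 library per condition, so nothing below has a replicate check and no test was made.

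Dystroglycan was high in MuSCs and Schwann cells and low in fibre droplets. In MuSCs Dag1 stood at 868 CPM in sham (818 to 920) and 714 in MOV (705 to 722), and in fibre droplets at 22.0 (17.1 to 27.9; 68 UMIs) and 19.4 (3.99 to 56.5; 3 UMIs). The intervals of MuSCs and fibre droplets lay far apart in each library, and Dag1 was 32.8-fold lower in fibre droplets over both libraries. Schwann cells overlapped MuSCs in sham and lay above them in MOV, with 594 CPM in sham (352 to 939) and 1108 in MOV (1014 to 1210). Pdgfra cells held 111 CPM in sham and 89.5 in MOV, between the fibre droplets and the MuSCs, and their intervals overlapped those of the tenocyte-marker cells, at 146 and 93.9.

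**Figure D1:**
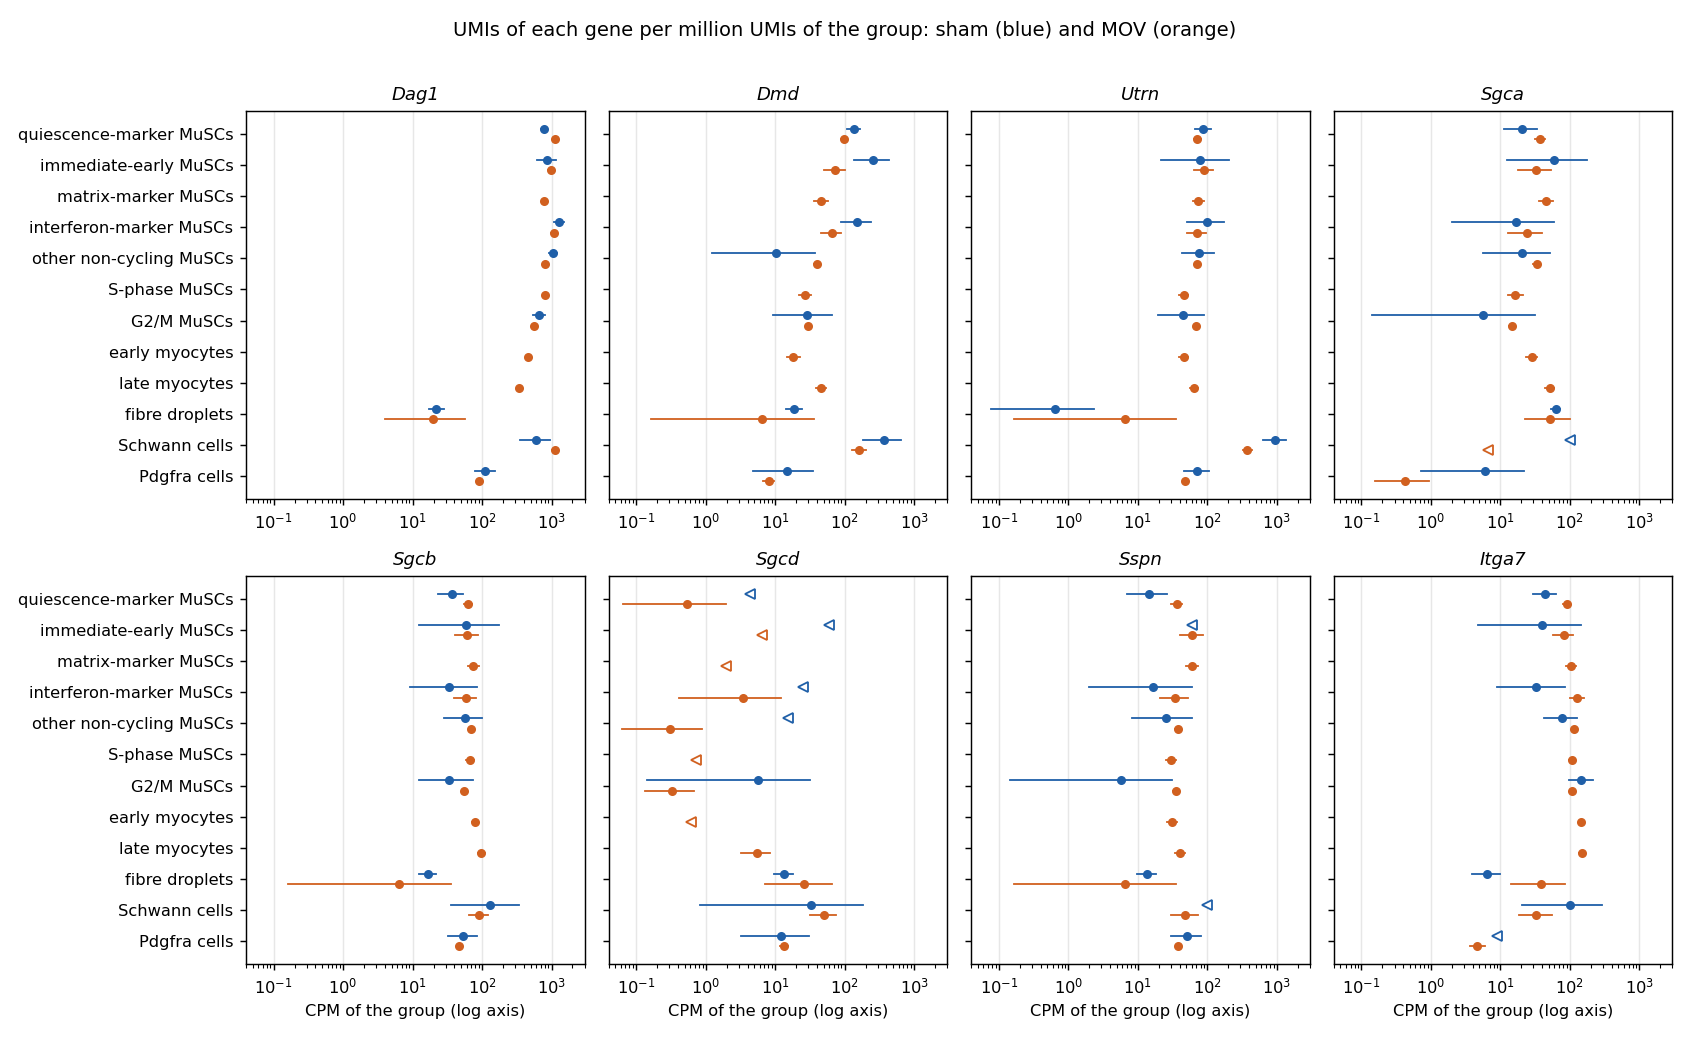
Level of each of the 8 genes by cell group. Each panel is 1 gene, the x axis is CPM on a log scale, the rows are groups with at least 5 cells in a library, dots are the sham and MOV libraries, lines are exact 95% Poisson intervals for counting error, and open triangles mark groups with 0 UMIs at the CPM of 3 counts. Dag1 is highest in MuSC states and Schwann cells, Sgca in fibre droplets, Utrn in Schwann cells, and Sgcd is near 0 in MuSCs.

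Among MuSC states of the MOV library, Dag1 was highest in cells with quiescence markers, at 1139 CPM (1105 to 1174), and lowest in cells with G2/M markers, at 558 (548 to 568). Cells with S-phase markers lay between them at 802 (775 to 830). Interferon-marker cells, at 1074 (992 to 1161), overlapped the quiescence-marker cells and also the immediate-early cells, at 978 (890 to 1073). Myocytes were lower again, with 455 CPM in early myocytes (437 to 475) and 339 in late myocytes (320 to 359). Late myocytes are those with more UMIs of Myh3, Myh8, Myl4 and Tnnt2 than of Myog, Mymk and Mymx, and early myocytes are the rest. Apart from the interferon-marker cells, no interval named here overlapped another.

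Dystrophin itself was higher in quiescence-marker MuSCs than in cycling ones. Dmd stood there at 135 CPM in sham (109 to 166) and 98.5 in MOV (88.7 to 109), and in MOV it was 26.9 in S-phase cells (22.1 to 32.4) and 29.7 in G2/M cells (27.4 to 32.1). The quiescence-marker cells lay above both cycling states with no overlap, while the cycling states overlapped each other. In early myocytes the level was 18.2 CPM (14.6 to 22.4), and in late myocytes 45.8 (39.0 to 53.4), again without overlap. Immediate-early MuSCs held 259 CPM in sham on 13 UMIs and 73.4 in MOV on 34 UMIs, and these intervals, 138 to 442 and 50.9 to 103, did not overlap either.

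Fibre droplets, where dystrophin protein has its best known role, held little Dmd RNA by this measure, with 18.8 CPM in sham (14.3 to 24.3; 58 UMIs) and 6.45 in MOV on 1 UMI. Schwann cells held the highest level of the groups that the design names, at 363 CPM in sham (181 to 650; 11 UMIs) and 161 in MOV (126 to 202; 73 UMIs). Those reads may be full-length or short forms, which cannot be told apart here. Pdgfra cells held 14.98 CPM in sham and 8.10 in MOV, and mural-marker cells, outside the named groups, held 70.1 in MOV (49.4 to 96.6).

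Utrophin, the paralog that can take the place of dystrophin, had another order. Schwann cells led with 958 CPM in sham (641 to 1375; 29 UMIs) and 377 in MOV (323 to 438; 171 UMIs), above MuSCs at 85.0 (69.9 to 103) and 68.3 (65.8 to 70.9) and Pdgfra cells at 71.9 (46.1 to 107) and 48.0 (44.5 to 51.8). Within MuSCs Utrn stood at 87.2 CPM in sham quiescence-marker cells, 72.3 in those of MOV (63.9 to 81.5) and 69.7 in MOV G2/M cells (66.2 to 73.3), and was lower in S-phase cells at 46.0 (39.7 to 53.0). Unlike Dmd, its quiescence-marker and G2/M intervals overlapped. In fibre droplets only 2 sham UMIs and 1 MOV UMI were counted. All 3 came from droplets of no type, with fewer than 5 UMIs of Myh4, Myh1 and Myh2 together or no majority among them. Those droplets were shallow, at a median of 1297 UMIs in sham and 679 in MOV, so their type is undetermined. The droplets led by Myh4, Myh1 or Myh2, the genes of the fast fibre types, had 0 in both libraries.

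The sarcoglycans did not share 1 pattern. Sgca, alpha sarcoglycan and the muscle-restricted one, was highest in fibre droplets, at 62.5 CPM in sham (54.0 to 71.9; 193 UMIs) and 51.6 in MOV (22.3 to 102; 8 UMIs). In MuSCs it stood at 19.3 in sham (12.5 to 28.5) and 22.9 in MOV (21.5 to 24.4), below the sham fibre droplets with no overlap. The fibre markers summed to a median of 3.54 UMIs per 10000 in sham MuSCs and 1.49 in those of MOV, against 503 and 333 in fibre droplets. How much of the Sgca count in MuSCs came from free fibre RNA was not tested.

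Outside the myogenic groups Sgca was at or near 0, apart from the mural-marker cells of MOV with 9.47 CPM on 5 UMIs (3.08 to 22.1), which overlapped the cycling MuSCs. Schwann cells had 0 of 484054 UMIs over both libraries, which allows up to 6.20 CPM at 3 counts, endothelial, immune and erythroid-marker cells had 0 as well, and Pdgfra cells had 2 UMIs in sham and 6 in MOV, which is 5.99 CPM (0.726 to 21.6) and 0.426 CPM (0.157 to 0.928). The values of the Pdgfra cells lay below all myogenic groups of MOV. Within MOV MuSC states and myocytes the level ran from 14.7 CPM in G2/M cells (13.1 to 16.4) and 16.5 in S-phase cells to 37.8 in quiescence-marker cells (31.8 to 44.5), 45.9 in matrix-marker cells (35.8 to 57.9) and 51.2 in late myocytes (44.0 to 59.2). The last 2 intervals overlapped each other and that of the fibre droplets. Early myocytes, at 28.2 CPM (23.7 to 33.4), lay below late myocytes without overlap.

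Sgcb, beta sarcoglycan, which is made in many tissues, did not follow Sgca. It stood at 41.7 CPM in sham MuSCs (31.4 to 54.5) and 60.9 in MOV (58.5 to 63.3), at 16.8 in sham fibre droplets (12.6 to 22.1; 52 UMIs), and at 53.9 and 46.6 in the Pdgfra cells of sham and MOV. Its highest level among myogenic groups was in late myocytes, at 98.03 CPM in MOV (88.0 to 109), above early myocytes at 78.2 (70.5 to 86.4). Schwann cells, at 90.4 CPM in MOV (64.8 to 123), overlapped both.

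Sgcd, delta sarcoglycan, was nearly silent in MuSCs and present in fibre droplets, Schwann cells and Pdgfra cells. MuSCs held 1 UMI in 114 sham cells and 14 UMIs in 1475 MOV cells, which is 0.773 CPM (0.0196 to 4.31) and 0.336 CPM (0.184 to 0.563). Fibre droplets held 13.3 CPM in sham (9.52 to 18.0; 41 UMIs), Pdgfra cells 13.4 in MOV (11.6 to 15.5; 189 UMIs), and Schwann cells 50.7 in MOV (32.1 to 76.1; 23 UMIs). The MOV fibre droplets, with 25.8 CPM on 4 UMIs (7.03 to 66.1), overlapped the Pdgfra cells and the Schwann cells of MOV, and those Schwann cells lay above the Pdgfra cells. In the myogenic line Sgcd was counted in late myocytes, with 19 UMIs and 5.40 CPM (3.25 to 8.43), while the 111 early myocytes of MOV had 0 UMIs, which allows up to 0.614 CPM at 3 counts.

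Sspn, sarcospan, a tetraspanin-like protein that binds the sarcoglycans, differed little between the MuSCs, Pdgfra cells and Schwann cells of MOV. It stood at 16.2 CPM in sham MuSCs (10.1 to 24.8) and 36.7 in MOV (34.9 to 38.6), 13.6 in sham fibre droplets (9.80 to 18.4), 38.1 in MOV Pdgfra cells (34.9 to 41.5) and 48.5 in MOV Schwann cells (30.4 to 73.4). The MOV intervals of those 3 groups overlapped, and sham MuSCs and sham fibre droplets overlapped as well. Matrix-marker MuSCs of MOV were higher than MuSCs as a whole, at 60.8 CPM (49.1 to 74.3).

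Itga7, the laminin-binding integrin subunit of muscle, which pairs with the beta 1 integrin, was higher in MuSCs and myocytes than in fibre droplets and Pdgfra cells, and highest in myocytes. In MOV it stood at 90.0 CPM in quiescence-marker MuSCs (80.6 to 100.1), 106 in G2/M cells (102 to 110.5), 144 in early myocytes (134 to 155) and 148 in late myocytes (136 to 162). The myocytes lay above the MuSC states named here with no overlap, and early and late myocytes overlapped. Sham fibre droplets held 6.47 CPM (3.95 to 10.0; 20 UMIs) and MOV fibre droplets 38.7 (14.2 to 84.2; 6 UMIs). Pdgfra cells had 0 UMIs in sham and 4.69 CPM in MOV (3.63 to 5.97), Schwann cells 99.1 in sham on 3 UMIs (20.4 to 290), which overlapped sham MuSCs at 71.9 (58.0 to 88.1), and 33.1 in MOV (18.5 to 54.5), and mural-marker cells 75.8 in MOV (54.1 to 103).

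Set against MuSCs over both libraries, fibre droplets had 2 of the 8 members at least 2-fold higher and 6 at least 2-fold lower. Among 13254 genes with at least 20 UMIs over both groups, 14.3% were at least 2-fold higher and 52.5% at least 2-fold lower, and the median log2 ratio of all of them was -1.13, beside -1.66 for the members. The members that were higher were Sgcd, by a log2 ratio of 5.31 (4.44 to 6.26, exact conditional interval), and Sgca, by 1.44 (1.22 to 1.66). The lower ones ran from Utrn at -6.22 (-8.50 to -4.67, on 3 UMIs), Dag1 at -5.04 (-5.39 to -4.70) and Itga7 at -3.73 (-4.34 to -3.17) to Sgcb at -1.88, Sspn at -1.44 and Dmd at -1.19 (-1.59 to -0.82). Over both libraries Dmd, Sspn and Sgcb lay within 1 log2 unit of the median gene, and with edgeR TMM or DESeq2 size factors, which shift this comparison by 0.94 and 1.13, 3 members instead of 6 were 2-fold lower: Dag1, Utrn and Itga7.

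Most MuSC UMIs were from MOV (41700981 of both libraries' MuSC UMIs, beside 1293954 from sham) and most fibre UMIs from sham (3089451, beside 155060 from MOV), so each library was also taken alone. All 8 members kept their direction in each library, but several values moved. Dmd was further down within each library than over both, at -2.43 in sham (-2.90 to -1.97) and -2.62 in MOV (-7.92 to -0.14, on 1 UMI), where the median of all genes was -0.97 in sham and 0.63 in MOV. It thus lay below the median gene in sham. In MOV the median is not a like measure, because genes with 0 UMIs were set to 3 counts before it was taken. In the MOV fibre droplets 3 counts are 19.3 CPM, above the 1 UMI of Dmd, so no rank against the median gene is given there. Dag1 was at -5.30 in sham and -5.21 in MOV, Utrn at -7.04 and -3.40, and Itga7 at -3.47 and -1.47. Sgcd was at 4.10 in sham and 6.26 in MOV, and Sgca at 1.69 in sham (1.09 to 2.36) and 1.17 in MOV, where the interval (-0.04 to 2.16) held 0. The Sgca ratio thus rested on the 193 sham UMIs. Sspn differed, with -0.26 in sham (-1.04 to 0.57) and -2.51 in MOV on 1 UMI. Without the 19 shared barcodes the 27 MOV fibre droplets left held 7 Sgca UMIs (49.3 CPM), 3 Dag1 UMIs (21.1 CPM) and 6 Itga7 UMIs (42.3 CPM).

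**Figure D2:**
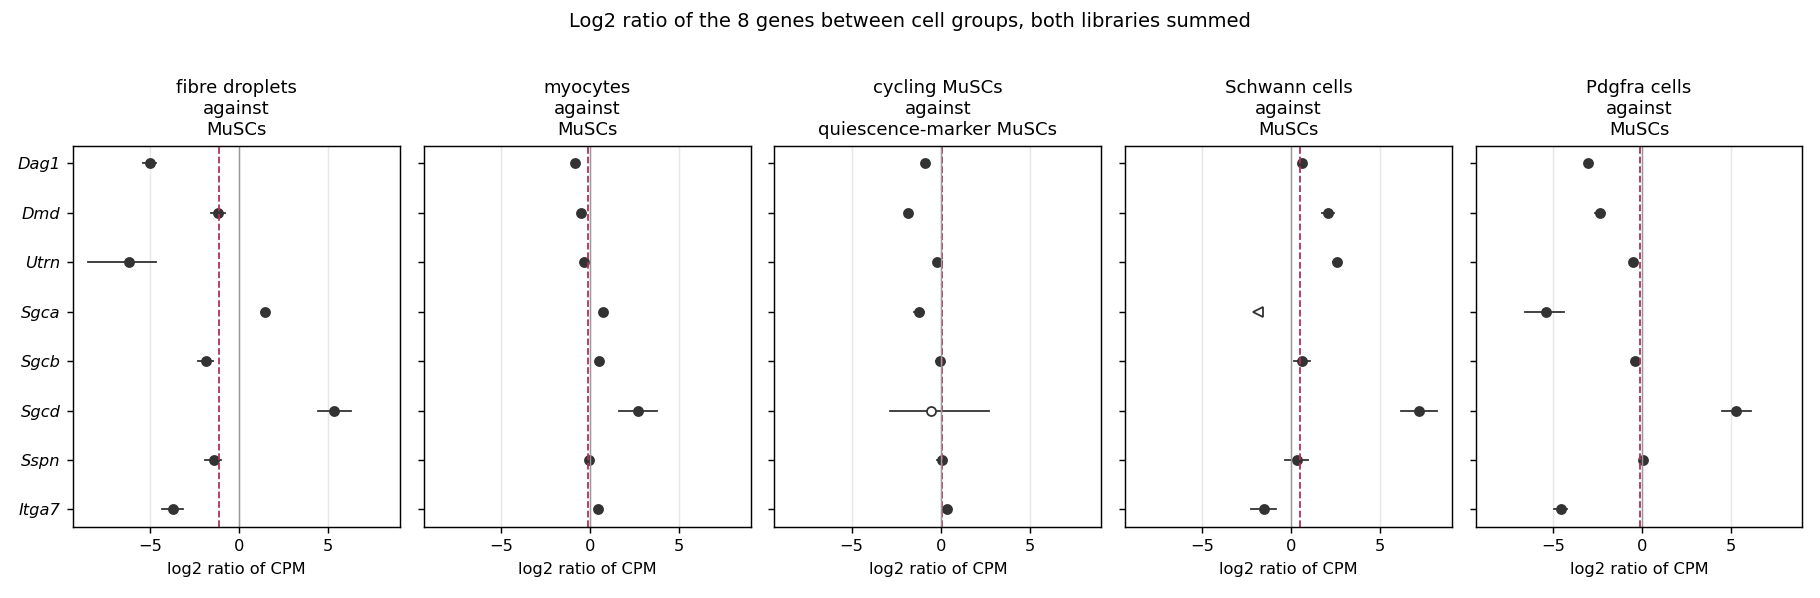
Log2 ratio of each member between groups, both libraries summed. The 5 panels set fibre droplets, myocytes, Schwann cells and Pdgfra cells against MuSCs and cycling against quiescence-marker MuSCs, lines are exact 95% conditional intervals, open circles have fewer than 20 UMIs in all, the open triangle is a bound from 3 counts, the red dashed line is the median of all genes tested and the grey line is 0. Sgcd is above 0 in fibre droplets, myocytes, Schwann cells and Pdgfra cells, while Sgca is above 0 in fibre droplets and myocytes and below it in the other panels.

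In myocytes against MuSCs, 1 of the 8 members was at least 2-fold higher and 0 at least 2-fold lower, where 7.82% of 13355 genes were higher and 12.7% lower. The higher one was Sgcd, by 2.69 (1.63 to 3.77). Sgca (0.73, 0.54 to 0.91), Sgcb (0.51) and Itga7 (0.47, 0.38 to 0.56) lay above 0 and Dag1 (-0.82), Dmd (-0.48) and Utrn (-0.36) below it, with Sspn at -0.04. The sarcoglycans and the integrin thus lay on the other side of 0 from dystroglycan and the cytoplasmic linkers, all within 2-fold apart from Sgcd. When every cell weighed the same, as the mean of single-cell CPM, Dag1 and Dmd passed 2-fold, at -1.06 and -1.17. With cells thinned to 2000 UMIs Itga7 stood at 1.14. Of the 194 myocytes 193 were from MOV.

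Cycling against quiescence-marker MuSCs gave 0 members higher and 2 lower among the 7 with at least 20 UMIs, where 15.7% of 12355 genes were higher and 9.59% lower. Dmd was lower by -1.84 (-2.01 to -1.67) and Sgca by -1.23 (-1.50 to -0.95). Dag1 followed at -0.86, and Utrn at -0.18, Sgcb at -0.04 and Sspn at 0.06 lay near the median of all genes, 0.09. Itga7 lay above it, at 0.37. With the mean of single-cell CPM Dag1 stood at -0.431, Dmd at -1.58 and Itga7 at 0.595. After thinning to 2000 UMIs these 3 stood at -0.405, -1.57 and 0.96. Since 661 of 667 cycling cells were from MOV, the ratio was also taken in MOV alone, where Dmd was at -1.75, Sgca at -1.33 and Dag1 at -0.93. In sham alone, with 6 cycling cells, Dag1 was at -0.03 (-0.28 to 0.22) and Itga7 was higher by 2.01 (1.30 to 2.73), beside 0.24 in MOV.

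Schwann cells had 3 of 8 members at least 2-fold higher than MuSCs and 2 lower, beside 24.5% and 11.1% of 13112 genes. Sgcd was higher by 7.15 (6.16 to 8.19), Utrn by 2.59 (2.37 to 2.79) and Dmd by 2.07 (1.73 to 2.38), against a median of 0.47 for all genes. Sgca, with 0 UMIs, was at least 3.67-fold lower, taken against 3 counts over the group. Itga7 was lower by -1.51 (-2.27 to -0.85), but in sham alone, on 3 UMIs, it stood at 0.46. Dag1 (0.58), Sgcb (0.62) and Sspn (0.33) stayed within 0.2 of the median gene.

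Pdgfra cells had 1 of 8 members higher than MuSCs and 4 lower, beside 18.7% and 14.9% of 13837 genes. Sgcd was higher by 5.26 (4.51 to 6.13). Sgca was lower by -5.36 (-6.57 to -4.37), or 41.0-fold, Itga7 by -4.53 (-4.91 to -4.18), or 23.1-fold, Dag1 by -3.00 and Dmd by -2.33. Utrn (-0.50), Sgcb (-0.37) and Sspn (0.09) stood within 2-fold. In sham alone Sgca was at -1.69 on 2 UMIs with an interval across 0 (-4.81 to 0.32), so the 41.0-fold rested on MOV, and Sspn was higher, by 1.65 (0.64 to 2.64), where in MOV it stood at 0.05.

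Paralogs can be compared as the share that 1 gene takes of the UMIs of a pair. Alpha sarcoglycan took a larger part of the UMIs of Sgca and Sgce, its paralog in non-muscle complexes, in myocytes than in MuSCs. The share of Sgca was 49.8% in MOV quiescence-marker MuSCs, 33.6% in G2/M cells, 72.3% in early myocytes (65.3 to 78.5, Clopper-Pearson) and 81.4% in late myocytes (75.7 to 86.3). In sham fibre droplets it reached 99.0% (96.3 to 99.9), and in MOV fibre droplets 8 of 8 UMIs were Sgca. In MOV Schwann cells 0 of 49 UMIs were Sgca, and in Pdgfra cells 5.71% were in sham and 0.972% in MOV.

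Dystrophin took 60.8% of the UMIs of Dmd and Utrn in sham quiescence-marker MuSCs (52.6 to 68.6) and 57.7% in those of MOV (53.7 to 61.5), and the intervals overlapped. The share was 29.9% in MOV G2/M cells, 28.5% in early myocytes and 41.4% in late myocytes. In sham fibre droplets it was 96.7% (88.5 to 99.6), while in Schwann cells it was 27.5% in sham and 29.9% in MOV. Dmd thus led the pair in quiescence-marker cells and fibre droplets, and Utrn led it in cycling cells, myocytes, Schwann cells and Pdgfra cells (17.2% Dmd in sham and 14.4% in MOV). Per-length levels were not computed, so a share compares 3′ counts.

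**Figure D3:**
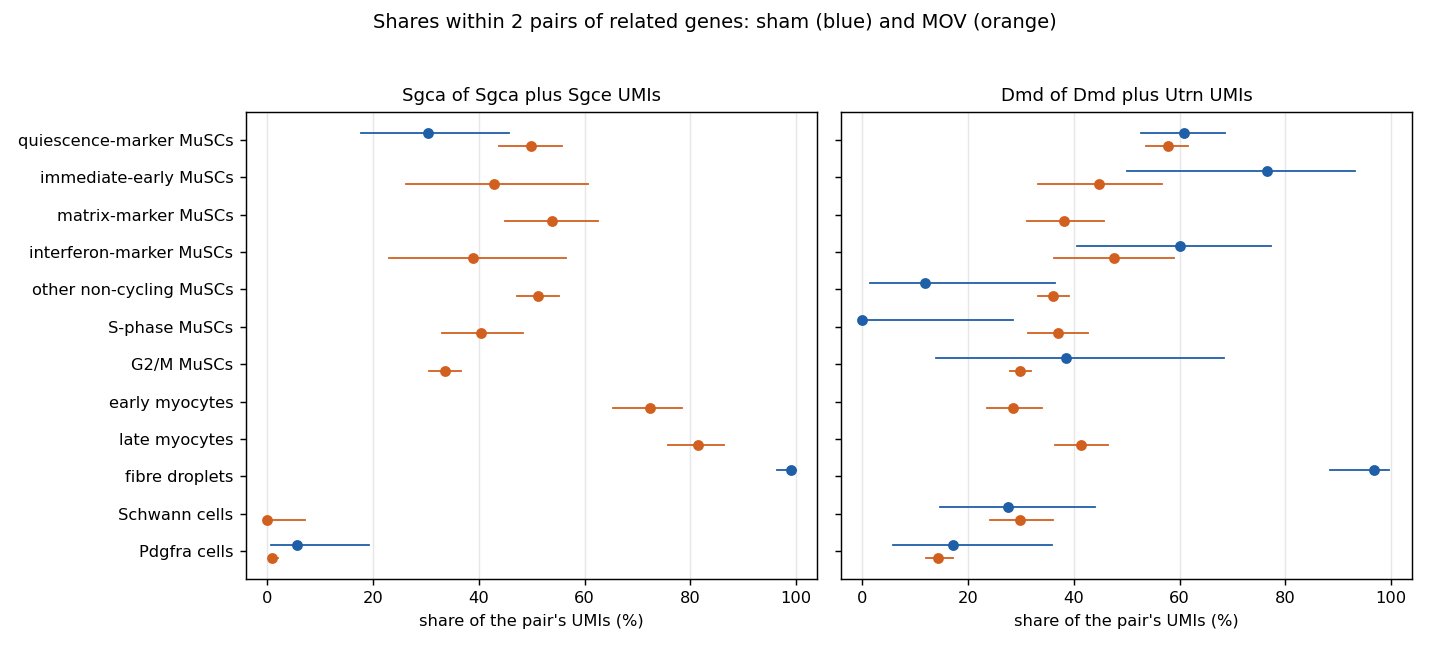
Share of each paralog pair by group. The left panel gives Sgca as a percent of Sgca and Sgce UMIs and the right panel Dmd as a percent of Dmd and Utrn UMIs, for groups with at least 10 UMIs of the pair in a library, with exact 95% Clopper-Pearson intervals. The Sgca share reaches 99.0% in sham fibre droplets and the Dmd share 96.7%, and the Sgca share is 0 of 49 UMIs in MOV Schwann cells.

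Groups differed in depth, with a median of 20699 UMIs per cell in MuSCs, 39723.5 in myocytes, 3387 in fibre droplets, 5385 in Schwann cells, 36714 in Pdgfra cells and 7489 in immune-marker cells, so the share of cells with a UMI was taken after thinning each cell to 2000 UMIs. Dag1 was then seen in 74.1% of MuSCs (99.1% unthinned), 75.4% of Schwann cells (93.4%), 54.7% of myocytes (86.6%), 16.8% of Pdgfra cells (89.2%) and 3.81% of fibre droplets (9.74%). The immune-marker cells, which should lack the complex of muscle, gave 12.1% (24.0%). That group included 4 sham cells at 1040 CPM of Dag1, and in its MOV cells alone the share was 7.41% (2.06 to 17.9), which overlapped the fibre droplets (2.10 to 6.32). Whether the Dag1 UMIs of the immune-marker cells were their own or background was not tested, so this overlap does not set a background level. How much of the Dag1 count in fibre droplets is background was not tested.

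Sgca was seen in 11.7% of fibre droplets at 2000 UMIs (8.61 to 15.5; 23.7% unthinned), 6.65% of quiescence-marker MuSCs, 5.88% of myocytes (57.2% unthinned) and 2.40% of cycling MuSCs (36.1% unthinned). It was seen in 0 of 57 Schwann cells, which allows up to 5.26%, in 0 of 388 Pdgfra cells (up to 0.773%) and in 0 of 58 immune-marker cells (up to 5.17%). Unthinned, deep MuSCs and myocytes carried Sgca more often than fibre droplets, and at equal depth the order turned. The fibre droplets left out as shallower than 2000 UMIs numbered 177, and the myocytes left out numbered 24.

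Dmd was seen at 2000 UMIs in 24.6% of Schwann cells (65.6% unthinned), 19.9% of quiescence-marker MuSCs (63.0%) and 6.75% of cycling MuSCs (55.8%), and 1.72% of immune-marker cells. Utrn was seen in 61.4% of Schwann cells (83.6% unthinned), 12.7% of MuSCs, 7.73% of Pdgfra cells, 5.17% of immune-marker cells and 0 of 367 fibre droplets (up to 0.817%). Itga7 was seen in 28.8% of myocytes, 18.0% of cycling MuSCs, 8.67% of quiescence-marker MuSCs and 1.72% of immune-marker cells. Sgcd was seen in 14.0% of Schwann cells, 2.58% of Pdgfra cells and 0.126% of MuSCs. The Utrn share of Schwann cells and the Dmd share of Schwann cells and quiescence-marker MuSCs were thus well above the immune-marker cells at equal depth.

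**Figure D4:**
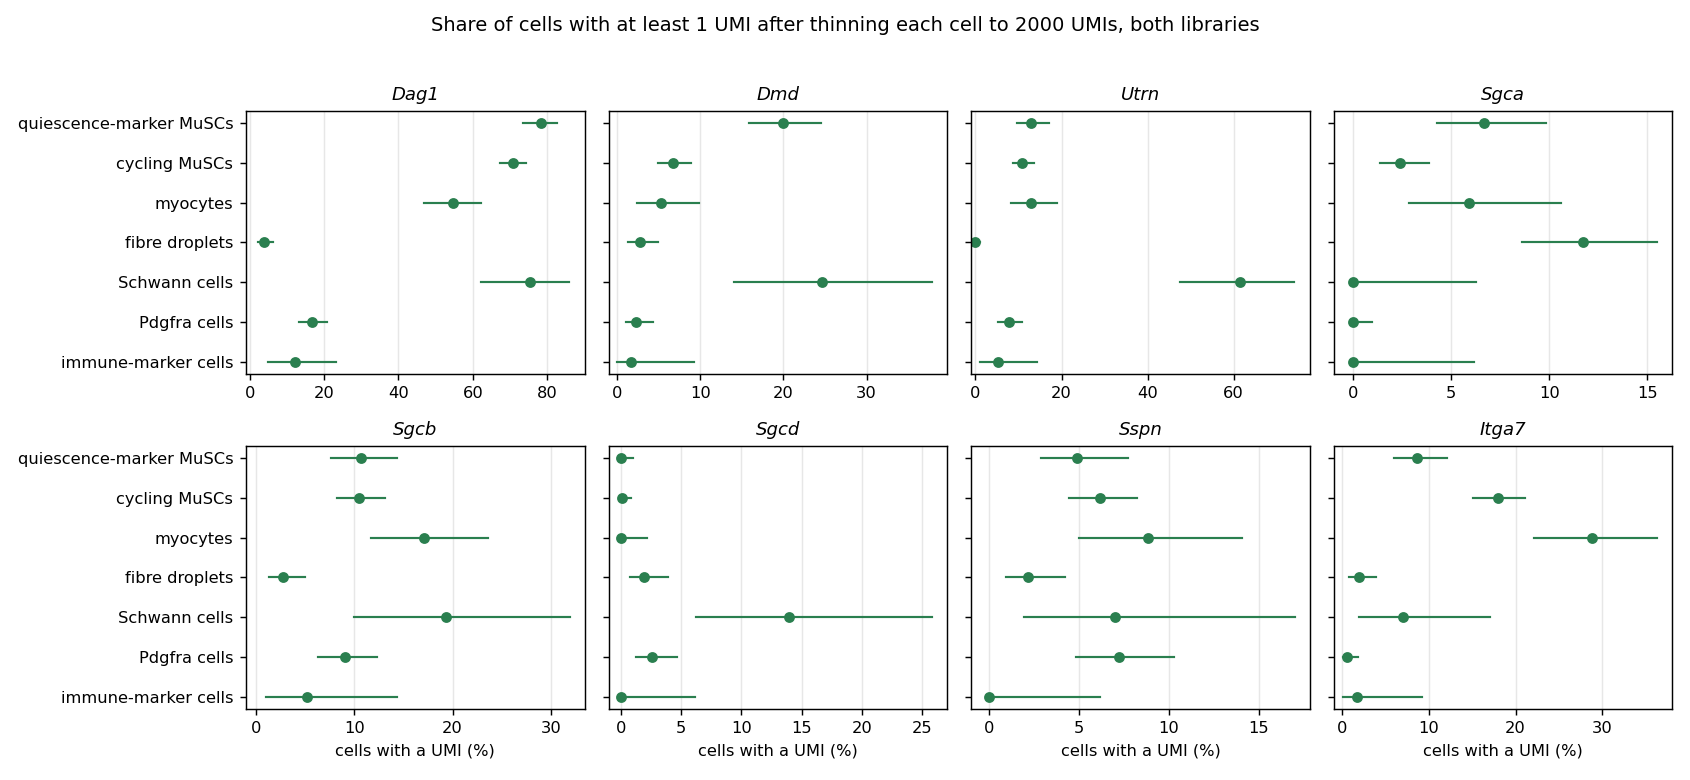
Percent of cells with at least 1 UMI of each member after thinning every cell to 2000 UMIs, both libraries together. Each panel is 1 gene, the rows are 7 groups, and lines are exact 95% Clopper-Pearson intervals. Dag1 is seen in 74.1% of MuSCs and 75.4% of Schwann cells, and Sgca is highest in fibre droplets at 11.7%.

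The question of the study was how MuSCs respond to mechanical load, and for the complex it can be put between the quiescence-marker MuSCs of MOV and sham. In this comparison 2 of the 7 members with at least 20 UMIs were at least 2-fold higher in MOV and 0 were lower, beside 18.2% and 7.32% of 8801 genes. Itga7 was at 43.6 CPM in sham (29.4 to 62.3; 30 UMIs) and 90.0 in MOV (80.6 to 100.1; 336 UMIs), a log2 ratio of 1.04 (0.50 to 1.64). Sspn was at 14.5 CPM in sham (6.97 to 26.7; 10 UMIs) and 36.1 in MOV (30.3 to 42.8; 135 UMIs), a log2 ratio of 1.31 (0.39 to 2.41). For both genes the intervals of the libraries did not overlap, with the median of all genes at 0.22. With TMM or DESeq2 size factors only Sspn passed 2-fold, with Itga7 at 0.87 and 0.84, and with a mitochondrial limit of 5% Sspn stood at 0.18.

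The other members stood within 2-fold. Dag1 was at 781 CPM in sham (716 to 850) and 1139 in MOV (1105 to 1174), a log2 ratio of 0.55 (0.42 to 0.68). That ratio depended on the processing. With a mitochondrial limit of 5% it was 0.04, and with TMM or DESeq2 size factors 0.37 and 0.34. With the mean of single-cell CPM it was 0.84. Sgcb was at 36.4 and 62.4, a ratio of 0.78 (0.18 to 1.44). Sgca was at 20.4 CPM on 14 UMIs and 37.8 on 141, a ratio of 0.89 (0.10 to 1.80). Dmd was the member that stood lower in MOV with an interval clear of 0, at -0.46 (-0.79 to -0.11), and Utrn, at -0.27 (-0.68 to 0.16), had an interval that held 0. These 3 and Dag1 changed with every cell thinned to 2000 UMIs. Sgca then stood at 0.07, Dmd at 0.20 and Utrn at 0.18, so the last 2 turned. Dag1 stood at 0.76, above its interval. Itga7 then stood at 1.22 and Sspn at 0.72. The thinned values come from a random draw, rest on fewer UMIs and are given without an interval, and depth as the cause of the change was not tested. The groups were not alike in other ways: the quiescence markers had a median of 61.0 UMIs per 10000 in sham and 42.6 in MOV, the fibre markers 3.73 and 1.34, and the depth was 8225.5 and 12523.5 UMIs per cell. The part of these in the ratios was not tested, and condition and library cannot be told apart.

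**Figure D5:**
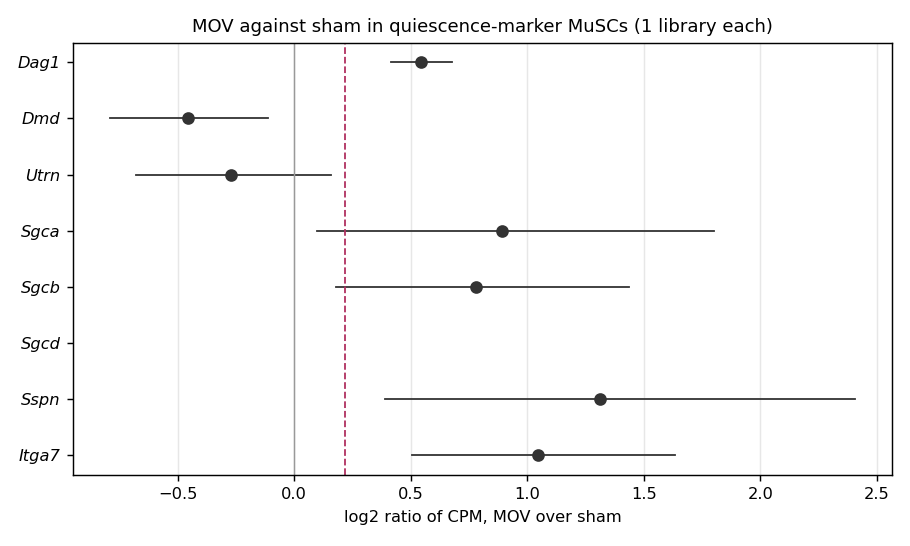
Log2 ratio of MOV against sham in quiescence-marker MuSCs, 78 sham and 268 MOV cells, for the members with a value. Points are ratios of summed UMIs, lines are exact 95% conditional intervals for counting error, the grey line is 0 and the dashed line is the median of all genes, 0.218. Sspn, Itga7, Sgca, Sgcb and Dag1 lie above 0 and Dmd and Utrn below it, and the last 2 turn when cells are thinned to 2000 UMIs.

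Between MOV and sham fibre droplets, 1 of the 7 members with at least 20 UMIs was at least 2-fold higher and 3 lower, beside 13.4% and 11.2% of 5757 genes. Genes with 0 MOV UMIs were set to 3 counts before these shares were taken. They pass as lower less readily than a gene with 1 MOV UMI, so the 11.2% is not a like measure for the 3 lower members. Itga7 was higher by 2.58 (0.97 to 3.95), on 6 MOV UMIs. Dmd (-1.54), Sgcb (-1.38) and Sspn (-1.08) each rested on 1 MOV UMI with an interval across 0, and Sgca (-0.28) and Dag1 (-0.19) lay near 0. Myh4-dominant against Myh2-dominant fibre droplets gave 0 members higher and 0 lower of the 6 with at least 20 UMIs, beside 11.9% and 12.7% of 4833 genes. Sgca stood at 0.08 (-0.50 to 0.69) and Dmd at -0.96 (-2.05 to 0.20), where in sham alone Dmd was at 12.6 CPM in Myh4-dominant (7.80 to 19.3) and 28.5 CPM in Myh2-dominant droplets (14.7 to 49.7), a ratio of -1.18 (-2.27 to -0.02).

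In Schwann cells the 2 linkers stood lower and dystroglycan higher in MOV, on few sham cells. Dag1 had a log2 ratio of 0.90 (0.22 to 1.67), Dmd of -1.18 (-2.10 to -0.11) and Utrn of -1.35 (-1.92 to -0.72), with 6 sham and 55 MOV cells. In Pdgfra cells the same genes were at -0.31, -0.89 and -0.58. The Schwann markers themselves had a median of 226 UMIs per 10000 in the sham and 57.0 in the MOV Schwann cells, and the part of this in the ratios was not tested.

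A wider list of 23 genes around the complex held other sarcoglycans, syntrophins, dystrobrevins, ligands and the enzymes that glycosylate dystroglycan, of which 22 could be compared and Sgcz had 0 UMIs. Over both libraries, 3 were at least 2-fold higher in fibre droplets than in MuSCs and 14 lower, beside 14.3% and 52.5% of all genes. The higher ones were Nos1, neuronal nitric oxide synthase, at 3.73, Dtna, alpha dystrobrevin, at 3.22, and Cav3, muscle caveolin, at 2.46. The lowest were Sntb2, a syntrophin, at -6.07, the laminin chain Lama2 at -5.66, Sgce at -5.64 and Dtnb at -4.22 on 1 UMI, and Itgb1, the partner of Itga7, was at -4.05. Delta and alpha sarcoglycan were thus higher in fibre droplets over both libraries, and epsilon and beta sarcoglycan lower. Most fibre UMIs were from sham and most MuSC UMIs from MOV, and the wider list is not given for each library alone. The TMM and DESeq2 shifts stated above for this comparison apply to its ratios too.

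In myocytes 3 of the 22 were higher and 3 lower than in MuSCs, beside 7.82% and 12.7% of all genes. Cav3 led at 3.72, followed by Sntb1 at 3.21 and Dtna at 2.12, while Sntb2 (-1.67), Sgce (-1.46) and Lama2 (-1.32) were lower and Itgb1 stood at -0.31. In cycling against quiescence-marker MuSCs, where 15.7% of all genes were higher and 9.59% lower, 2 of 21 were higher, the O-mannose kinase Pomk (1.63) and the O-mannosyltransferase Pomt1 (1.11), and 3 were lower, Nos1 (-2.00), agrin, Agrn (-1.05), and Lama2 (-1.02). Sgce and Itgb1 stood at -0.48 and -0.17.

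Schwann cells had 6 of the 22 higher and 1 lower, beside 24.5% and 11.1% of all genes. The highest were Dtna at 4.57, Agrn at 4.40, Nos1 at 3.15 and Sntb1 at 2.90, with Sgce at 1.80, and Cav3 was lower at -3.13 on 1 UMI, while Itgb1 (0.99) and Lama2 (-0.83) stood within 2-fold. Pdgfra cells, beside 18.7% higher and 14.9% lower of all genes, had 2 of the 22 higher, Gmppb (2.68) and Pomk (1.74), which both act in the glycosylation of dystroglycan, and 5 lower, led by Nos1 (-3.74), Cav3 (-3.32), Sntb1 (-2.81) and Dtna (-2.41). Sgce, Itgb1 and Lama2 stood at 0.54, 0.41 and 0.64 there.

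Between MOV and sham quiescence-marker MuSCs, 3 of 15 tested genes of the wider list were higher and 0 lower, beside 18.2% and 7.32% of all genes. Cav3 had 41 UMIs in MOV and 0 in sham, at least 2.52-fold higher against 3 counts, and Gmppb (2.08) and B4gat1 (1.68) followed. Sgce (-0.29), Itgb1 (0.47) and Lama2 (0.39) stood within 2-fold. In MOV against sham fibre droplets, where 13.4% of all genes were higher and 11.2% lower, 2 of 9 were higher, Cav3 (1.50) and Itgb1 (1.07), and 2 lower, Rxylt1 (-1.46) and B3galnt2 (-1.11). The limit stated above for the 11.2% holds here too. In Myh4-dominant against Myh2-dominant droplets 1 of 9 was higher, Nos1 (1.17), and 0 were lower, beside 11.9% and 12.7%.

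Over 13 profiles of group and library with at least 50 cells, the genes most like each member by Pearson's r of log2(CPM + 1) were taken as a description, since the profiles share libraries. For Dag1 these were Gsap (0.992), Drp2 (0.99), a dystrophin-related gene, and Sdc4 (0.987), and for Sgca they were Ano5 (0.973), Des (0.957), the muscle intermediate filament desmin, and Gstp2 (0.954). For Itga7 they were B3gnt5 (0.973), Chrna1 (0.967), a subunit of the muscle acetylcholine receptor, and Milr1 (0.961). For Utrn they were Kif3b (0.982), Cd9 (0.979) and Sbno1 (0.977), for Sgcb Cdh2 (0.982), Ccnd3 (0.98) and Ckb (0.98), and for Sspn Lgmn (0.97), Ift46 (0.969) and Slc22a15 (0.943). Dmd, with Syf2 (0.885), Ank3 (0.884) and Cux1 (0.881), and Sgcd, with Slc6a8 (0.935), Rtl8a (0.924) and Mapk9 (0.898), had less close neighbours. Among the members themselves the closest pair was Sgcb and Sspn (0.874), then Dag1 and Utrn (0.866), and the most opposed was Itga7 and Sgcd (-0.714).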

How the data were processed

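Reads had been aligned by the authors to mm10 using Cell Ranger 6.0.0, and the submitters' processing notes also name R 4.0.2 and Seurat 4.0.2. The authors deposited filtered matrices of raw UMI counts per gene and cell, 1 per library, without normalization.

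Cells at a mitochondrial share of 10% or above were left out of these counts (362 sham, 794 MOV). Cells were assigned by 16 marker lists, none of which holds a member, from UMIs of a list per 10000 UMIs with at least 3 UMIs of the list. Pdgfra cells also had to hold at least 2 UMIs of the gene Pdgfra itself. The limits were 100 for fibre, 2 for MuSCs and 10 for myocyte, Schwann and Pdgfra lists, and they were set after the distributions of the lists had been seen. A fibre droplet was typed by the adult myosin gene that held the majority of the UMIs of Myh4, Myh1 and Myh2, where these together came to 5 or more. The others were left as of no type. Within 1.5 times of the MuSC limit, above or below it, lay 199 MOV cells, where 1679 were at or over it. These counts were 264 and 368 for the quiescence limit within MuSCs, and 98 and 195 for the myocyte limit. The near cells are not a part of those at or over a limit, since some lie below it. Cells over the limits of 2 lineages (20 sham, 157 MOV) were left out, which was the only step against doublets in the main values. Cells that passed only the myocyte and MuSC lists were kept as myocytes. Scrublet scores in scanpy, as an alternative, removed 4 sham cells (0.542%) and 75 MOV cells (2.45%).

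Sums of UMIs were taken per group and library. CPM has exact Poisson intervals, ratios have exact conditional intervals and shares have Clopper-Pearson intervals, all at 95% and for counting error only, since a library is 1 sample. A group at 0 UMIs was set to 3 counts for a bound, and also in the shares and medians of all genes. A member counted as higher or lower at a ratio of at least 2-fold with at least 20 UMIs over both groups, and all genes with at least 20 UMIs gave the background. The 8 members were named in each comparison, and from the wider list the largest ratios in each direction among the genes past 2-fold (up to 4) with Sgce, Itgb1 and Lama2. A few genes of the wider list are not reported here, and its counts leave them out. Profiles for likeness held at least 50 cells and genes at least 200 UMIs. The members, lists and groups were chosen with earlier results of these data known.

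Alternatives were mitochondrial limits of 5%, 20% and none, doublet scores, TMM (edgeR 4.0.16) and DESeq2 1.42.0 size factors in R 4.3.3, the mean of single-cell CPM, marker limits 1.5 times as high or as low, each library alone, no filter on low counts, cells not thinned, and, added after the data were seen, ratios after thinning to 2000 UMIs and the shared barcodes left out. The ratio was tested on simulated data. Python 3.11.15, numpy 2.4.6, scipy 1.17.1, pandas 2.3.3, scanpy 1.11.5 and matplotlib 3.10.9 were used.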

Additional observations from a re-analysis of the deposited data

Results flagged for a closer look

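Sgca was higher in MOV in one group and lower in another. In quiescence-marker MuSCs the log2 ratio of MOV to sham was 0.89 (0.10 to 1.80), from 141 UMIs in MOV and 14 in sham. In Pdgfra cells it was -3.81 (-6.30 to -0.47), from 6 UMIs in MOV and 2 in sham, which are 0.426 and 5.99 CPM. Both intervals exclude 0 on opposite sides for counting error, but the difference between the groups was not tested, as each condition is 1 library, and the second value rests on 8 UMIs in all. With every cell thinned to 2000 UMIs the Sgca ratio in quiescence-marker MuSCs was 0.07.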

How the results depend on the processing

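No paired analysis was possible because the groups hold 1 library each and share a single replicate number, and leaving out a replicate would leave no library in an arm, so each library alone is given instead. Of the alternative values, 188 of the counts of members stayed within 1.5 times of the main count and 30 did not, and of the single ratios 692 stayed within the counting interval, 128 moved out of it and 2 past 2-fold turned.

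In fibre droplets against MuSCs the members higher went from 2 to 1 in MOV alone and after thinning, and the members lower from 6 to 3 with TMM and with DESeq2. In myocytes the higher went from 1 to 2 in sham alone (1 cell), and the lower from 0 to 2 with the mean of single-cell CPM and to 1 in sham alone and after thinning. In cycling MuSCs sham alone, with 6 cycling cells, gave 1 higher instead of 0 and 1 lower instead of 2. In Schwann cells the lower went from 2 to 0 in sham alone and 1 after thinning, and in Pdgfra cells the higher went from 1 to 0 after thinning. Between MOV and sham quiescence-marker MuSCs the higher went from 2 to 1 with mitochondrial limits of 5%, 20% and none, with TMM, with DESeq2 and after thinning. Between fibre droplets the higher went from 1 to 2 with no mitochondrial limit, the mean of single-cell CPM, marker limits 1.5 times as high and no filter on low counts, and to 0 after thinning, when the lower went from 3 to 0. For Myh4-dominant against Myh2-dominant droplets the lower went from 0 to 2 with a mitochondrial limit of 5%, the mean of single-cell CPM and high marker limits, and to 1 with no mitochondrial limit and in sham alone. The ratios past 2-fold that turned were Itga7 in Schwann cells against MuSCs, 0.463 in sham alone, and Dmd in MOV against sham fibre droplets, 0.323 with the mean of single-cell CPM. Ratios within 2-fold also changed sign beyond their interval: in sham alone Sgca (-0.11), Sgcb (-0.22) and Sspn (1.14) in myocytes, Dag1 in Schwann cells (-0.55), and Sgcb in cycling MuSCs (0.34) and Pdgfra cells (0.37), after thinning Dmd (0.20) and Utrn (0.18) between MOV and sham quiescence-marker MuSCs and Sspn in myocytes (0.40), and with the mean of single-cell CPM Sgcd between Myh4-dominant and Myh2-dominant droplets (-2.88). After thinning, fewer UMIs are left to pass the filter on low counts, and for the other changes the cause was not tested.

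The limits are depth and number. The sham MuSCs, Schwann cells and myocytes and the MOV fibre droplets are few or shallow, so values there rest on few UMIs and have wide intervals.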

Other observations

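Some cells outside the described groups carried members of the complex. Endothelial-marker cells of MOV, 24 cells, held 222 CPM of Utrn (160 to 300) beside 15.8 CPM of Dmd on 3 UMIs, so Dmd took 6.67% of the pair. Mural-marker cells of MOV, 25 cells, held 118 CPM of Dag1, 112 of Utrn, 75.8 of Itga7 and 70.1 of Dmd, and 9.47 CPM of Sgca on 5 UMIs. Tenocyte-marker cells held 46.3 CPM of Sgcd in sham on 7 UMIs (18.6 to 95.4) and 29.5 in MOV on 43 UMIs (21.3 to 39.7), above the 13.4 CPM of the MOV Pdgfra cells.

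The 4 immune-marker cells of sham held 1040 CPM of Dag1 on 33 UMIs (716 to 1460) and 378 CPM of Utrn on 12 UMIs, where the 71 immune-marker cells of MOV held 47.9 (32.3 to 68.3) and 14.4 CPM. The Schwann markers had a median of 6.08 UMIs per 10000 in those sham cells, under the limit of that list, and 0 in those of MOV. Whether the sham cells held Schwann RNA was not tested, nor was any other explanation. All 8 members had 0 UMIs in the erythroid-marker cells of both libraries, 16 cells in sham and 5 in MOV.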
